A study of Mus musculus with 12 samples.

Results

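Transporters of the ATP-binding cassette (ABC), Slco and Slc22a families were examined in mouse liver RNA. Members were the genes whose symbol in the deposited expression table begins with Abca, Abcb, Abcc, Abcd, Abcg, Slco or Slc22a followed by a digit. Pseudogene names and 1 further gene were left out by that rule. It gave 87 of the 57010 genes in the table, 45 of them ABC genes, 16 Slco and 26 Slc22a, with 86 different symbols because Slco6b1 is listed under 2 identifiers. The study compared 6 control livers, labelled as without treatment, with 6 livers of mice given selenium-enriched Aspergillus oryzae A02, a food fungus, by daily gavage at 0.5 mg selenium per kg in saline. All were wild-type male C57BL/6J mice, given as 6 weeks old and assigned to groups after a 7-day acclimatization, on a normal diet. The design text gives 8 weeks of feeding and the sample descriptions speak of 14 weeks. The labels name 10 mice per group and describe no control that received the fungus without selenium, so fungus and selenium cannot be told apart. "Selenium" below names the treated group, and each numbered library is taken as 1 mouse.

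ABC proteins spend ATP to move substrates across membranes. In hepatocytes several of them sit in the canalicular membrane, where they put phospholipid, sterols, conjugated bilirubin and drugs into bile, and others face the blood or lie in peroxisomes, mitochondria and lysosomes. Slco genes encode organic anion transporting polypeptides (OATPs), which take up bile acids, hormone conjugates and drugs from sinusoidal blood, and Slc22a genes encode carriers of organic cations, organic anions and carnitine. The ABC genes are called the export families here and the Slco and Slc22a genes the uptake families. These names are loose, since the peroxisomal Abcd proteins carry fatty acyl groups into peroxisomes and some Slc22a carriers work in both directions.

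Slco1b2 and Slco1a1, the most abundant OATP genes, and Slco1a4 lie on chromosome 6, with Slco1a4 next to Slco1a1 in the RefSeq gene order. Their promoter windows are shown because Slco1a4 had the smallest p of all transporters, while the intervals of the changes of the other 2 included 0; they were picked after their values were seen. Each runs 5′ to 3′ from 250 bases before to 50 bases after the RefSeq start on build GRCm38.p6. Capitals mark matches, on either strand, to TATAAA (a core promoter element), CACGTG (E-box), TTATGTAA (D-box), TGACNNNGC (core of the antioxidant response element), AGGTCA (nuclear receptor half-site) and GTTAAT (half-site of HNF1). The windows are chr6:141856171-141856470 on the minus strand for Slco1a4, chr6:141946913-141947212 on the minus strand for Slco1a1 and chr6:141629268-141629567 on the plus strand for Slco1b2.
Slco1a4: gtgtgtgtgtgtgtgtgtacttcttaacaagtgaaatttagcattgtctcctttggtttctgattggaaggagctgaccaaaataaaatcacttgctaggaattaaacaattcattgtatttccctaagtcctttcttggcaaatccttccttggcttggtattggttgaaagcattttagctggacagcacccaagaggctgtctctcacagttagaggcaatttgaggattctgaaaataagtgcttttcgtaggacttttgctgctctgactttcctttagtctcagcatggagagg
Slco1a1: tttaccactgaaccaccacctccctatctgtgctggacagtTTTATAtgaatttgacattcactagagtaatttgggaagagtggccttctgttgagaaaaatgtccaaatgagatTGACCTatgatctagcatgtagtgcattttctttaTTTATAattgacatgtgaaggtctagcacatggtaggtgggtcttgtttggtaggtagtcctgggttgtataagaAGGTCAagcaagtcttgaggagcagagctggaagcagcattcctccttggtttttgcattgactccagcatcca
Slco1b2: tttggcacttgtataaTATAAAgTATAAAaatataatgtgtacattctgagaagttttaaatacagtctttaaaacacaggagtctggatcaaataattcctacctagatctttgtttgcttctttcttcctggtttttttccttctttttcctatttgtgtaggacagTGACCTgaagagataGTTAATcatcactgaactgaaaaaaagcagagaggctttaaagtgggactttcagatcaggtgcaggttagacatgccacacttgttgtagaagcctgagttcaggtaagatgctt

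The Slco1a4 window held none of these 6 motifs. The Slco1a1 window held TATAAA at 2 places and AGGTCA at 2, and the Slco1b2 window TATAAA at 2 places, AGGTCA at 1 and GTTAAT at 1. Of 32851 RefSeq promoter windows of 300 bases, 13.6% held TATAAA, 16.3% AGGTCA, 12.4% TGACNNNGC, 7.15% CACGTG, 7.1% GTTAAT and 0.938% TTATGTAA. A match is a run of letters and no evidence of binding, and the lack of one says nothing about a factor.

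Expression was deposited as TPM, transcript abundance scaled to a fixed total per library, which is corrected for transcript length, so genes can be compared with each other while the sequencing depth is unknown. Genes with at least 1 TPM in at least 6 of the 12 libraries were tested, 9980 in all, and 36 of the 87 transporters were among them, 22 ABC, 5 Slco and 9 Slc22a. The other 51 lay below, and 18 of the 87 were listed at 0 in all 12 libraries. Those 18 include Slc22a6, Slc22a8 and Slc22a2, the organic anion and cation carriers of kidney, and Abcc8, the sulfonylurea receptor of pancreatic beta cells. The label names hepatocytes as the cell type, and the summed level of 7 hepatocyte markers, among them Alb and Apoa1, ran from 32294 to 55654 TPM in controls and from 35686 to 54169 TPM with selenium. Markers of other liver cells were present too, with 6 Kupffer cell genes at 32.0 to 88.3 TPM in controls and 37.8 to 154 TPM with selenium, 6 endothelial genes at 23.8 to 53.3 and 26.2 to 47.9 TPM, 6 stellate cell genes at 46.5 to 65.5 and 18.2 to 72.0 TPM and 6 bile duct genes at 25.1 to 269 and 16.0 to 133 TPM. None of these markers was at 0 in all libraries. The bile duct sum was mostly Spp1, at 266 TPM in control 5 and 129 TPM in selenium 3. Krt19, Krt7, Epcam and Cftr of that list were too low to be tested. Dcn was the largest part of the stellate cell sum. In whole liver, fewer cells of a type and less RNA per cell cannot be told apart.

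Uptake transporter transcripts were more abundant than export transcripts in every library, and the difference between group means was smaller than the SD for both totals. Over all 42 uptake genes the summed level ranged from 767 to 909 TPM in controls, with a median of 848 TPM, and from 741 to 906 TPM with selenium, with a median of 816 TPM. The 45 export genes summed to 365 to 499 TPM in controls, with a median of 463 TPM, and to 404.5 to 550.4 TPM with selenium, with a median of 495 TPM. Means ± SD (n = 6 per group) were 844 ± 52.1 and 828 ± 59.6 TPM for uptake and 449 ± 52.4 and 479.8 ± 58.2 TPM for export, and the groups overlapped in both. Of the mean uptake total, Slco1b2 made up 25.5%, Slco1a1 8.92%, Slc22a30 6.59% and Slc22a18 5.14%. In the export total Abcd3 came first at 19.0%, and the leading 5 genes, Abcd3, Abcc2, Abcc3, Abcb4 and Abcg2, together reached 67.1%.

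**Figure D1:**
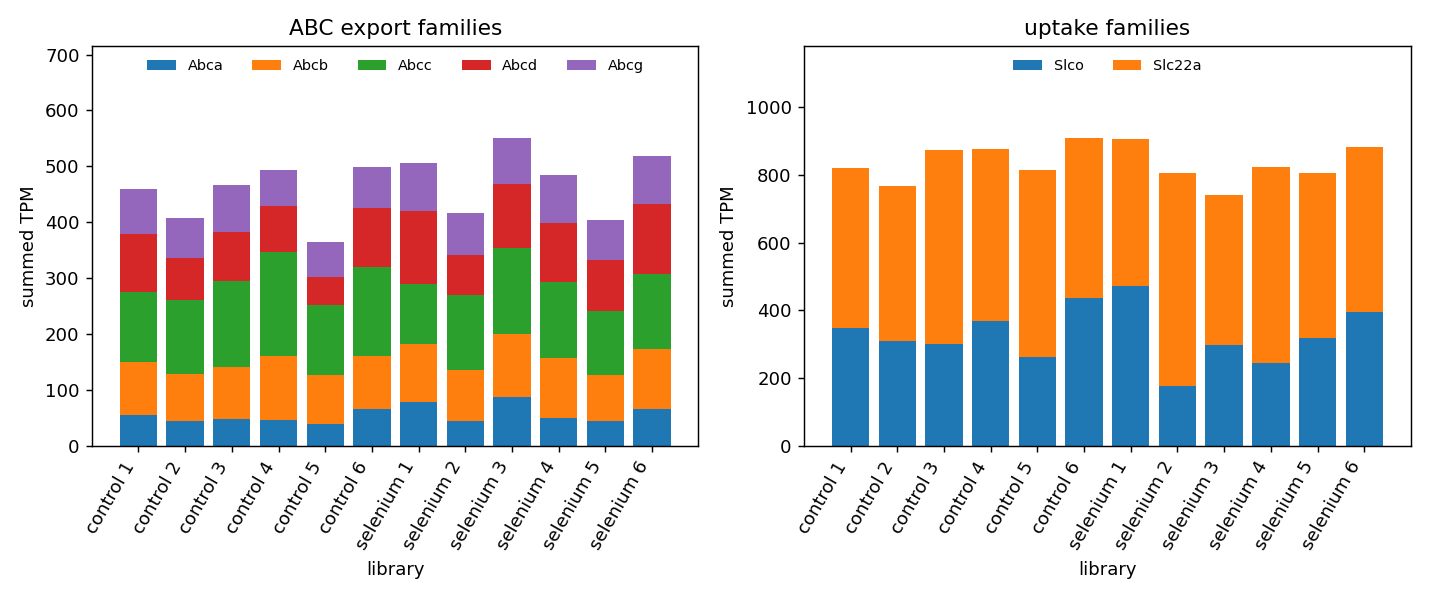
Summed TPM (vertical axis) of the ABC export families (left) and of the Slco and Slc22a uptake families (right) in each of the 12 libraries, stacked by gene family. Export totals lie between 365 and 550.4 TPM and uptake totals between 741 and 909 TPM, and the Slco share is lowest in selenium 2.

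A mean of at least 10 TPM was reached by 20 transporters, among them Slco1b2, with control and selenium means of 222 ± 30.0 and 204 ± 80.9 TPM, and Abca6, the lowest of the 20, with means of 9.18 ± 1.56 and 11.7 ± 5.32 TPM. Among these 20 the ratio of the highest to the lowest library was narrowest for Abcg5, at 1.402, and widest for Slc22a7, at 5.69. Over the 36 tested transporters the median of that ratio was 2.64, against 2.20 over all tested genes.

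**Figure D2:**
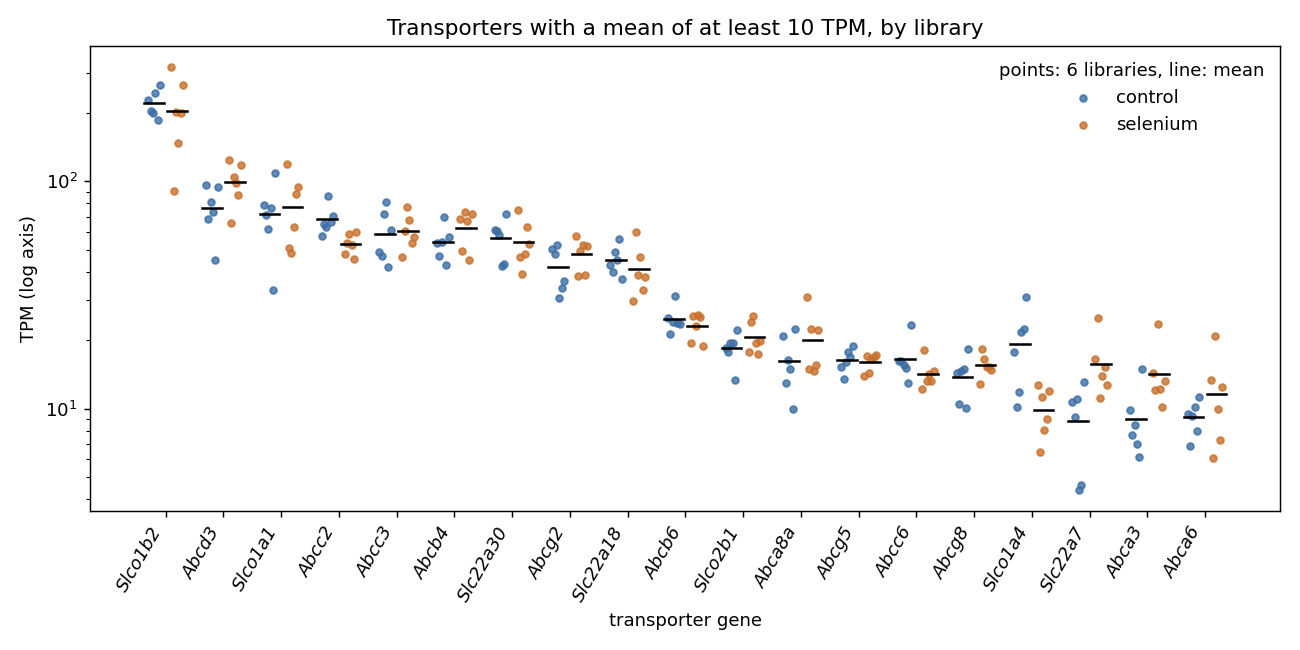
TPM on a log axis for 19 transporters with a mean of at least 10 TPM, ordered by mean. Points are the 6 control (blue) and 6 selenium (orange) libraries and black lines are group means; Slco1a4 lies lower and Slc22a7 higher in selenium, with overlapping points.

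The comparison of selenium with control asks whether transporter transcripts differed after the selenium-enriched fungus. No transporter passed a Benjamini-Hochberg adjusted p of 0.05 over all genes in limma, two-sided, on log2(TPM + 1), where 33 of the 9980 genes passed, or 0.331%. The exact permutation test per gene passed 0 of all 9980 genes after adjustment (smallest adjusted p 0.133). Its 0 of 36 therefore says nothing particular to transporters. At an unadjusted p under 0.05, limma gave 3 higher and 4 lower transporters, 8.33% and 11.1% of the 36, and the background shares over all tested genes were 7.01% and 11.4%, so both counts lay close to the background. The exact permutation test gave 7 at an unadjusted p under 0.05, not all the same genes. Abcd4 was not among them (exact permutation p of 0.0693), while Abcc9 was (log2 change -0.25, exact permutation p of 0.0433). The share of all tested genes at that permutation p was not counted, so these 7 have no background beside them. In none of the 36 did the groups lie apart, which held for 1.63% of all tested genes. The median log2 change, selenium minus control on the log2(TPM + 1) scale, was 0.06 for the 22 export genes and -0.03 for the 14 uptake genes, beside -0.03 over all tested genes. Of the export changes 13 were positive and 9 negative, and of the uptake changes 6 and 8. By role, the genes at an unadjusted p under 0.05 were 1 lower of 5 tested canalicular genes, 1 lower of 8 of organelles, 2 higher of 3 other ABC genes, 1 lower of 5 OATP genes and 1 higher and 1 lower of 9 Slc22a genes, with 0 among 3 blood-facing exporters and 0 among 3 of the Abca5 to Abca9 group. The half-width of the 95% intervals ran from 0.23 to 0.62. These intervals are not adjusted for the number of genes. The 7 changes larger than their own half-width did not pass after adjustment, so the half-width is no limit of detection.

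**Figure D3:**
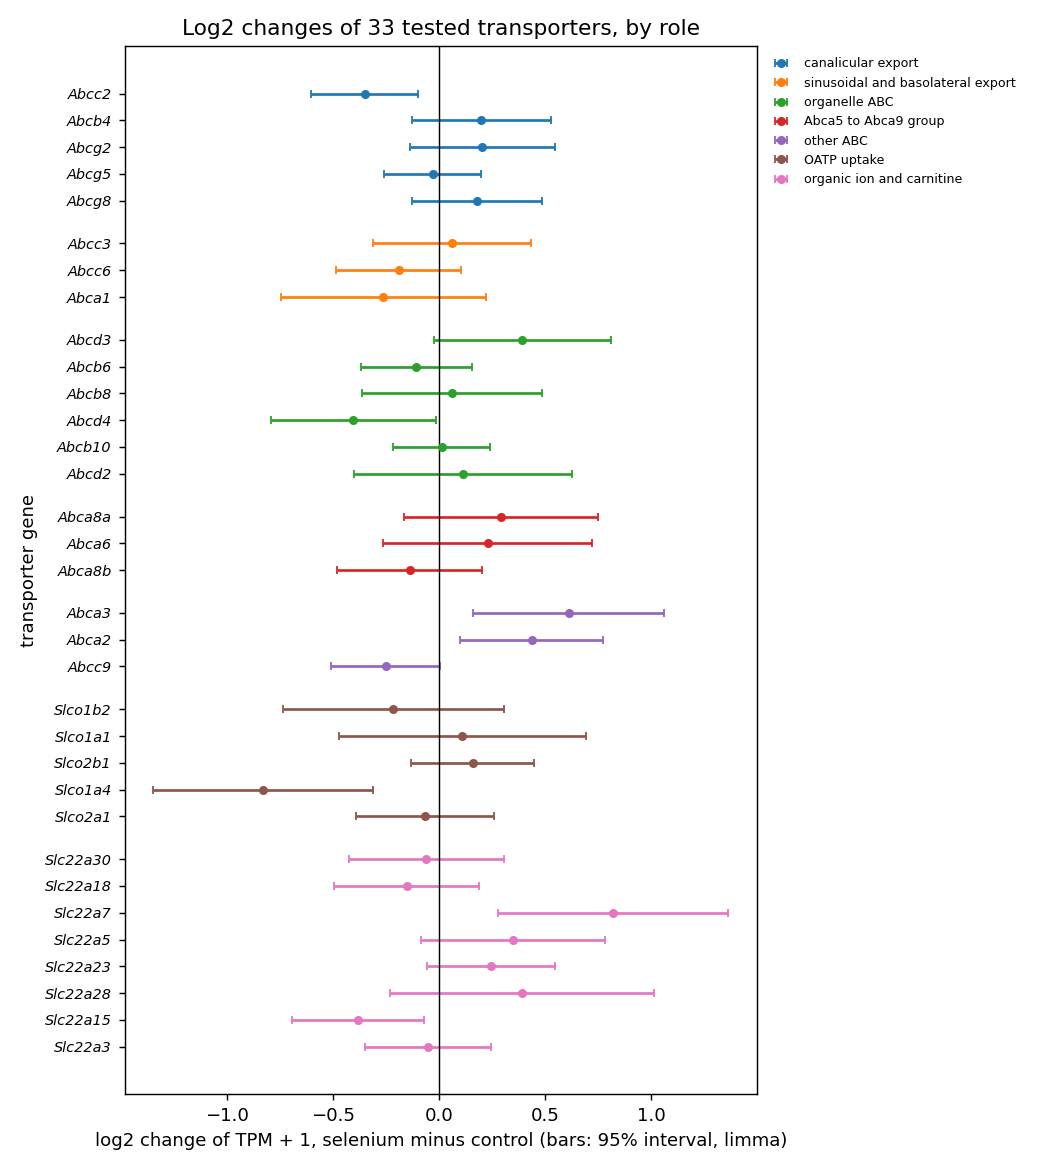
Log2 change of TPM + 1, selenium minus control (horizontal axis), with its 95% interval from limma for 33 tested transporters, grouped and coloured by role. The intervals of Abcc2, Abcd4, Abca3, Abca2, Slco1a4, Slc22a7 and Slc22a15 do not include 0, and none of the 33 passed after adjustment over all genes.

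Among the OATP genes, Slco1a4 (Oatp1a4), an uptake carrier of bile acids, steroid conjugates and cardiac glycosides, showed the largest change in size. In controls 1 to 6 it stood at 17.7, 10.2, 11.9, 21.8, 22.5 and 31.1 TPM, and in selenium 1 to 6 at 12.7, 6.45, 11.2, 8.04, 9.03 and 12.01 TPM. The 3 lowest selenium libraries, 2, 4 and 5, lay below every control, controls 1, 4, 5 and 6 lay above every selenium library, and the groups overlapped between 10.2 and 12.7 TPM. Its log2 change was -0.83 (SE 0.24, 95% interval -1.35 to -0.31), with an adjusted p of 0.116 by limma and an unadjusted exact permutation p of 0.0195. Its neighbour Slco1a1 (Oatp1a1), a carrier of similar substrates that is more abundant in male liver, ranged from 33.4 to 109 TPM in controls and from 48.6 to 119 TPM with selenium, a log2 change of 0.11 whose interval, -0.47 to 0.69, included 0. Whether the 2 genes differ in their change was not tested, and reads of such related genes may be shared between them.

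Slco1b2 (Oatp1b2), the mouse counterpart of the human hepatic OATP1B carriers, ranged from 186 to 265 TPM in controls and from 90.5 to 318 TPM with selenium. Its 2 most distant libraries were both in the selenium group, selenium 2 at 90.5 TPM and selenium 1 at 318 TPM, so the standard deviation was 80.9 TPM there and 30.0 TPM in controls. The log2 change was -0.21 with an interval of -0.73 to 0.31. Slco2b1, a carrier of sulfated steroids, ranged from 13.3 to 22.2 and from 17.5 to 25.6 TPM (change 0.16, interval -0.13 to 0.45). Slco2a1, a prostaglandin carrier known from endothelium, ranged from 4.39 to 7.87 and from 3.75 to 7.52 TPM (change -0.07, interval -0.39 to 0.26). The endothelial marker sums given above overlapped between groups as well, and their part in the level of Slco2a1 was not tested. The other 11 Slco genes did not reach the filter.

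Of the Slc22a carriers, Slc22a7 (Oat2), which exchanges organic anions and nucleotides at the sinusoidal membrane, had the change of largest size. It stood at 10.7, 9.17, 11, 4.40, 4.62 and 13.1 TPM in controls 1 to 6 and at 16.5, 25.0, 11.2, 13.9, 15.2 and 12.7 TPM in selenium 1 to 6. Selenium 1, 2, 4 and 5 lay above every control, and controls 4 and 5 were the lowest libraries. The log2 change was 0.82 (SE 0.25, interval 0.28 to 1.36), with an adjusted p of 0.129 by limma and an unadjusted exact permutation p of 0.00866. Slc22a15, a carrier of zwitterions, was far less abundant and had a negative change. Its values were 2.38, 2.63, 3.53, 1.81, 3.38 and 2.75 TPM in controls and 1.48, 2.49, 2.34, 1.99, 1.69 and 1.25 TPM with selenium. Selenium 1, 5 and 6 lay below every control, and control 4, at 1.81 TPM, below selenium 2, 3 and 4. The change was -0.38 (SE 0.14, interval -0.69 to -0.07), with an adjusted p of 0.189 by limma and an unadjusted exact permutation p of 0.0260.

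Among the other tested Slc22a carriers, Slc22a5 (Octn2), the main carnitine carrier, ranged from 5.37 to 13.6 and from 8.00 to 15.3 TPM (change 0.35, interval -0.09 to 0.78), and Slc22a3 (Oct3) from 1.05 to 2.25 and from 0.850 to 1.83 TPM (change -0.05, interval -0.35 to 0.25). Slc22a18, an orphan carrier of an imprinted region, ranged from 37.0 to 55.5 and from 29.8 to 59.8 TPM (change -0.15, interval -0.49 to 0.19). Slc22a30 ranged from 42.6 to 71.8 and from 39.3 to 74.7 TPM (change -0.06, interval -0.43 to 0.30). It lies on chromosome 19 in a run of 8 neighbouring Slc22a genes, in which only Slc22a30 and Slc22a28 reached the filter, Slc22a28 with control and selenium means of 5.34 and 6.83 TPM. Reads may be shared between such close relatives, as between Abca8a and Abca8b or Abcb1a and Abcb1b, and their values are uncertain to that extent.

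At the canalicular membrane, Abcc2 (Mrp2), the exporter of conjugated bilirubin and glutathione conjugates, had the lowest p. Its values were 57.4, 64.7, 63.0, 86.2, 66.0 and 70.5 TPM in controls 1 to 6 and 47.7, 53.4, 58.6, 52.4, 45.5 and 60.1 TPM in selenium 1 to 6. Selenium 1, 2, 4 and 5 lay below every control, and only control 1 lay within the selenium range. The log2 change was -0.35 (SE 0.12, interval -0.60 to -0.10), with an adjusted p of 0.151 by limma and an unadjusted exact permutation p of 0.00649.

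For the other canalicular genes tested, the intervals of the change included 0. Abcb4 (Mdr2), the phosphatidylcholine floppase, ranged from 42.9 to 69.4 TPM in controls and from 45.1 to 73.4 TPM with selenium (change 0.20, interval -0.13 to 0.53), and Abcg2 (Bcrp), a multidrug and urate exporter, from 30.8 to 52.6 and from 38.2 to 57.6 TPM (change 0.20, interval -0.14 to 0.54). Abcg5 and Abcg8 together encode the sterol exporter and lie next to each other on chromosome 17. They were close in level, with control means of 16.4 ± 1.92 and 13.8 ± 3.09 TPM and selenium means of 16.0 ± 1.49 and 15.5 ± 1.84 TPM (changes -0.03, interval -0.26 to 0.20, and 0.18, interval -0.13 to 0.48). The P-glycoprotein genes Abcb1a and Abcb1b, neighbours of Abcb4 on chromosome 5, stayed below the filter, with control means of 0.460 and 0.427 TPM and selenium means of 0.325 and 0.525 TPM. The 7 canalicular genes together summed to means of 195 ± 16.8 and 196 ± 21.7 TPM.

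For the exporters that face the blood the intervals likewise included 0. Abcc3 (Mrp3), which returns glucuronides to blood, ranged from 41.8 to 81.3 TPM in controls and from 46.5 to 77.5 TPM with selenium (change 0.06, interval -0.31 to 0.43). Abcc6, which releases ATP from hepatocytes and is mutated in pseudoxanthoma elasticum, ranged from 12.9 to 23.4 and from 12.2 to 18.1 TPM (change -0.19, interval -0.48 to 0.10). Abca1, which loads cholesterol onto apolipoprotein A-I, was tight in controls, 6.19 to 8.66 TPM, and spread in selenium from 2.77 TPM in selenium 2 to 9.41 TPM in selenium 1 (change -0.26, interval -0.74 to 0.22). Abcc4 (Mrp4) stayed below the filter at 0.0800 to 0.550 TPM.

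Among ABC genes of organelles, Abcd3 (Pmp70), a major peroxisomal membrane protein, was the most abundant export gene with a control mean of 76.5 ± 19.0 TPM and a selenium mean of 99.8 ± 21.4 TPM. Of its selenium libraries 4 lay above every control, while selenium 2, at 65.7 TPM, lay below all controls but control 5 at 45.0 TPM. Its change was 0.39 (interval -0.02 to 0.81, adjusted p of 0.303 by limma, unadjusted exact permutation p of 0.0909). Abcd4, a lysosomal protein of cobalamin release, had a negative change, with 3.63, 4.40, 3.89, 5.64, 2.09 and 4.46 TPM in controls and 1.70, 3.57, 3.35, 3.13, 2.11 and 2.71 TPM with selenium. Control 5 was the exception among controls, at 2.09 TPM against at least 3.63 TPM in the other 5, whereas no selenium library exceeded 3.57 TPM. The change of Abcd4 was -0.40 (interval -0.79 to -0.02, adjusted p of 0.251 by limma, unadjusted exact permutation p of 0.0693). The peroxisomal carrier Abcd2 had a change of 0.11 (interval -0.40 to 0.63). The mitochondrial ABC proteins Abcb6, Abcb8 and Abcb10, which include proteins known from heme metabolism, had changes of -0.11, 0.06 and 0.01, and all 3 intervals included 0.

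The remaining 2 genes at an unadjusted limma p under 0.05 were lipid transporters of the Abca family. Abca3, known from surfactant secretion in lung, stood at 9.83, 7.67, 8.49, 7.02, 6.11 and 15.0 TPM in controls and at 14.3, 12.1, 23.6, 12.2, 10.1 and 13.2 TPM with selenium. Every selenium library lay above controls 1 to 5, but control 6, at 15.0 TPM, lay above all selenium libraries except selenium 3. The change was 0.61 (interval 0.16 to 1.06, adjusted p of 0.158 by limma, unadjusted exact permutation p of 0.0281). Abca2, known from brain and lysosomes, stood at 2.01, 1.82, 2.06, 1.26, 1.26 and 2.80 TPM in controls and at 2.85, 4.24, 3.17, 2.05, 2.48 and 2.46 TPM with selenium. Control 6 was again the highest control, and 3 selenium libraries lay above it (change 0.44, interval 0.10 to 0.77, adjusted p of 0.172 by limma, unadjusted exact permutation p of 0.0238). Abca8a and Abca6, from a run of 5 neighbouring genes on chromosome 11, had changes of 0.29 and 0.23 with intervals of -0.17 to 0.75 and -0.26 to 0.72.

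**Figure D4:**
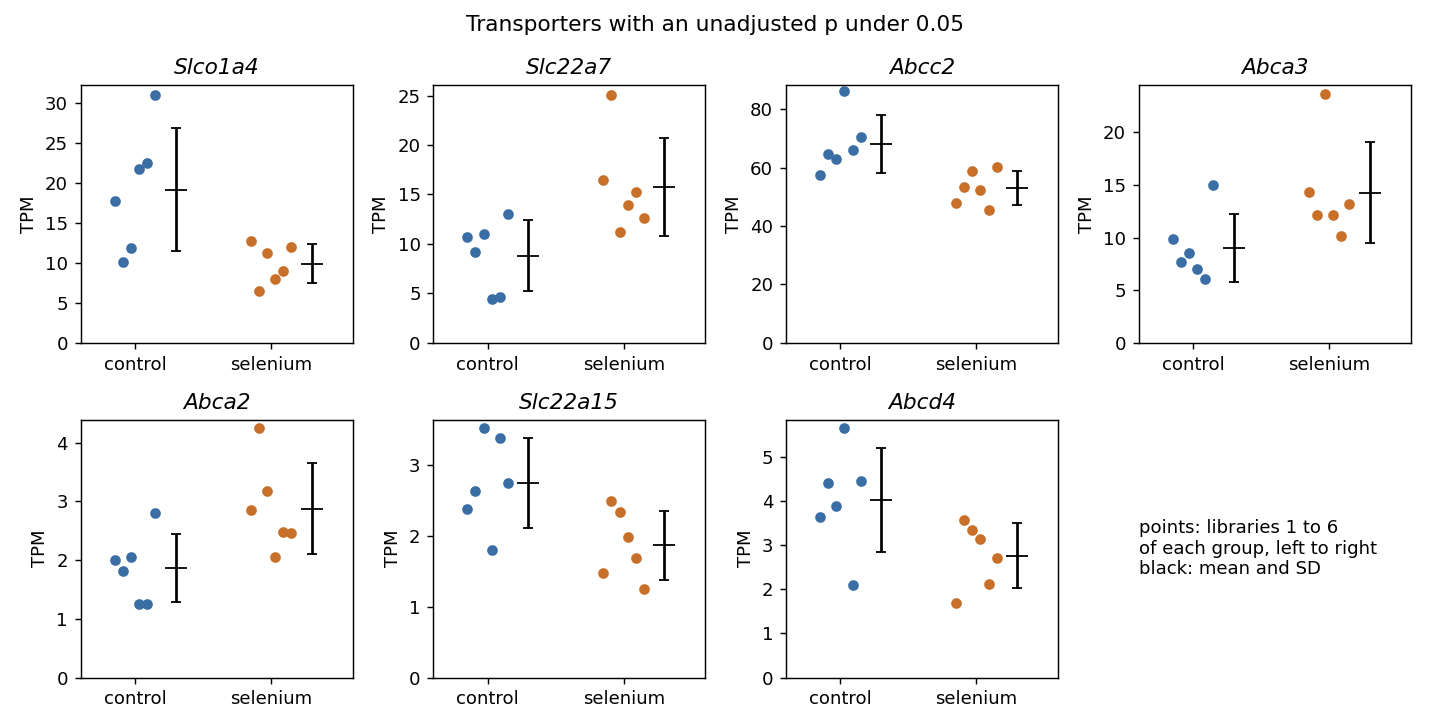
TPM of the 7 transporters with an unadjusted limma p under 0.05, 1 panel each with its vertical axis starting at 0. Points are libraries 1 to 6 of each group from left to right and black marks are mean and SD; the groups overlap in all 7 panels.

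The libraries also differed in the clock gene Dbp, which was at 15.7 to 53.6 TPM in controls 5 and 6 and selenium 1 and 5 and at 0.720 to 1.44 TPM in the other 8. The labels give no time of sampling. Among the 8 libraries with low Dbp the log2 changes were -0.63 for Slco1a4, 0.77 for Slc22a7, -0.25 for Abcc2, 0.77 for Abca3, 0.49 for Abca2, -0.25 for Slc22a15 and -0.35 for Abcd4. Among the 4 with high Dbp they were -1.23, 0.92, -0.54, 0.29, 0.32, -0.65 and -0.50, given without a test since each group has 2 libraries there. All 7 kept their sign in both. With 2 components of clock gene expression as covariates the changes were, in the same order, -1.21, 0.86, -0.51, 0.42, 0.33, -0.48 and -0.53. The unadjusted limma p was then 0.172 for Abca3, 0.156 for Abca2 and under 0.05 for the others. None passed after adjustment (lowest limma adjusted p 0.154). The 7 had been chosen on all 12 libraries, these included, so none of this is a separate check. The changes of Slco1a1 (-0.21 and 0.75) and Slco1b2 (-0.42 and 0.19) had opposite signs in the 2 Dbp sets. So did those of Slc22a30 (-0.24 and 0.29), Abcb8 (0.38 and -0.57) and Slco2a1 (0.17 and -0.55). Further examples were Slc22a18 (0.03 and -0.51), Slc22a3 (0.12 and -0.39) and Abcd2 (0.25 and -0.16). Such sign changes were not limited to these genes, and no difference between the sets was tested.

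The authors' deposited table gives its own log2 fold changes and p-values, which are set beside the values above with the sign turned to selenium minus control. By the authors' deposited table, 4 of the 36 transporters were higher and 2 lower at an adjusted p under 0.05, or 11.1% and 5.56%, where the background over the 9980 genes was 6.97% and 2.9%. The lower genes in the authors' deposited table were Slco1a4 (-1.07, adjusted p = 0.000725) and Slc22a15 (-0.45, adjusted p = 0.0455). Of the higher ones, Slc22a7 (0.95, adjusted p = 0.0247) and Abca3 (0.79, adjusted p = 0.0132) in the authors' deposited table had the same direction as in TPM.

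Abcb6, also higher in the authors' deposited table (0.42, adjusted p = 0.0314), had no positive change in the deposited TPM. The log2 ratio of mean TPM was -0.11 for Abcb6, and the reason for this difference was not tested. Abcc2, the canalicular exporter with lower TPM, had a log2 fold change of 0.05 and an adjusted p of 0.811 in the authors' deposited table. Over the 36 transporters the median log2 fold change in the authors' deposited table was 0.21, against 0.04 from TPM, and 7 genes differed in sign. Over all 9980 genes the median was 0.06 in the authors' deposited table and -0.03 from TPM.

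**Figure D5:**
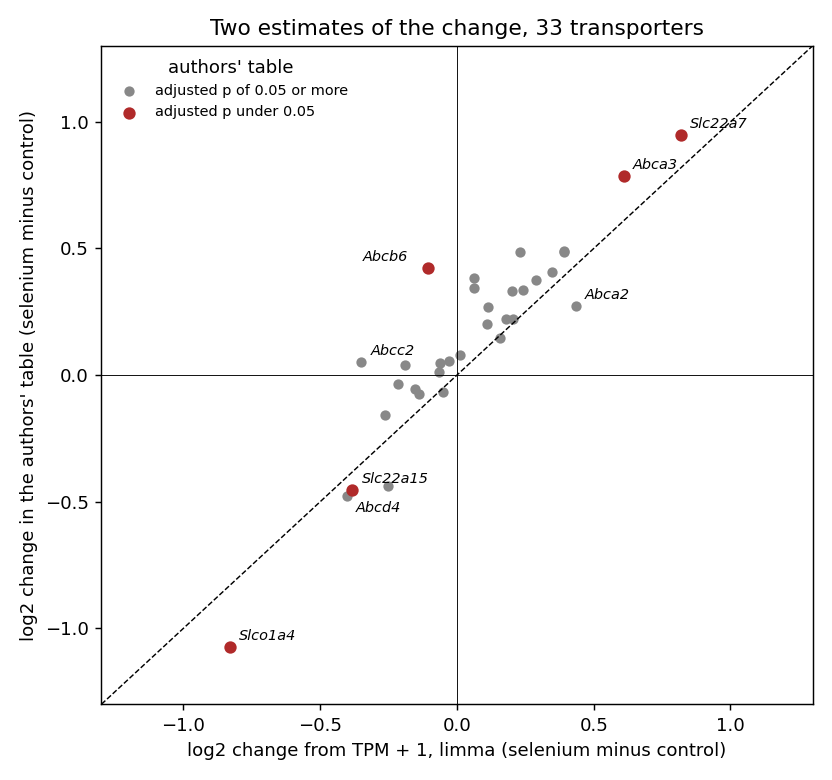
Log2 change from TPM + 1 by limma (horizontal axis) against the log2 change in the authors' deposited table (vertical axis), both selenium minus control, for 33 tested transporters. Red points have an adjusted p under 0.05 in the authors' table, the dashed line marks equal values, and Abcb6 lies at 0.42 on the vertical axis and -0.11 on the horizontal one.

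Genes that work with these transporters were read from 3 lists. Of 16 transcription factors that control transporters, all passed the filter, 0 passed the test in either direction and 4 were higher and 1 lower at an unadjusted p under 0.05 in limma. Beside these counts, over all tested genes 7.01% were higher and 11.4% lower at that p, and the median log2 change was 0.01 over the list and -0.03 over all tested genes. Nr1i3 (CAR), a xenobiotic sensor known to drive several Slco and Abcc genes, had control and selenium means of 70.8 ± 10.9 and 53.9 ± 8.41 TPM (change -0.39, adjusted p of 0.154 by limma, unadjusted exact permutation p of 0.0130). The xenobiotic sensor Nr1i2 (PXR) had a change of -0.08 and the bile acid receptor Nr1h4 (FXR) of -0.13. The factors with positive changes at an unadjusted p under 0.05 were Nr1h3 (LXR-alpha, 0.30), the common partner Rxra (0.55), Hnf4a (0.39), the highest of the list at 81.8 ± 19.7 and 106 ± 19.2 TPM, and Ppara (0.96). Their limma adjusted p-values ran from 0.169 to 0.259. Among the libraries with low and with high Dbp the changes were 0.38 and 0.15 for Nr1h3 and 0.73 and 0.19 for Rxra. They were 0.62 and -0.09 for Hnf4a, 1.13 and 0.61 for Ppara and -0.26 and -0.65 for Nr1i3. For Nr1i2 they were 0.22 and -0.68, of opposite sign, and for Nr1h4 -0.18 and -0.04. With 2 components of clock gene expression as covariates, Nr1h3, Rxra, Hnf4a, Ppara and Nr1i3 had changes of 0.15, 0.22, 0.02, 0.70 and -0.55. With the same covariates Nr1i2 had a change of -0.58 and Nr1h4 of 0.01. Whether these changes depend on the clock was not tested.

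Of 16 matched membrane partners, among them other carriers and scaffold proteins, 14 passed the filter and 0 passed the test, with 2 higher and 1 lower at an unadjusted p under 0.05 in limma, where the background was 7.01% higher and 11.4% lower. Their median log2 change was 0.14. Pdzk1, a scaffold that anchors OATPs in the sinusoidal membrane, averaged 18.6 ± 4.19 and 24.1 ± 2.04 TPM (change 0.38, adjusted p of 0.164 by limma, unadjusted exact permutation p of 0.0173). Its change was 0.45 among the libraries with low Dbp, 0.25 among those with high Dbp and 0.17 with the clock covariates. The fatty acid and bile acid CoA ligase Slc27a5 had a change of 0.44 and Slc51a, a subunit of the basolateral bile acid exporter, of -0.55. Slc51a was near the filter, with means of 1.54 ± 0.723 and 0.758 ± 0.548 TPM and an unadjusted exact permutation p of 0.0606. Slc10a1 (Ntcp), the main sodium-coupled bile acid uptake carrier, averaged 198 ± 50.7 and 211 ± 17.4 TPM, and Slc27a2, the highest of the list, 586 ± 206 and 712 ± 143 TPM. Of 7 ABC proteins outside the rule, 6 passed the filter, 0 passed the test and 2 were higher and 0 lower at an unadjusted p under 0.05 in limma, beside the same background of 7.01% and 11.4%, with a median log2 change of 0.14. These 2, Abcf1 (0.38) and Abcf2 (0.55), act in translation and have no membrane domain, and Tap2 of antigen presentation was the highest of that list at 18.1 ± 8.28 and 18.3 ± 10.4 TPM.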

How the data were processed

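Each library was RNA sequencing of frozen liver. The submitters' processing notes name HISAT2 2.1.0, RSEM 1.2.8, DESeq2 and build GRCm39; parameters and strand use are not given in the sources used for this report. The authors deposited TPM per gene and library, equal in the series table and the single-library tables in 100% of values (within 1e-09 TPM). TPM holds no depth, so no counting error is given. The log2 fold changes and p-values of the authors' comparison are used as deposited, with the sign turned.

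In R 4.3.3, log2(TPM + 1) of the 9980 genes with at least 1 TPM in at least 6 of 12 libraries was fitted with limma 3.58.1 (intensity trend, no covariate, two-sided, Benjamini-Hochberg adjustment, threshold 0.05). The procedure was also run on simulated data. Genes were drawn there independently and without library effects, so that run does not settle the error rate here. The pseudocount of 1 understates changes of low genes. The p-values measure the spread between libraries; no label says more of how they were drawn than the mouse number.

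The members, lists and alternatives were chosen with earlier results of these data known. Named were transporters at an unadjusted p under 0.05, with a mean of at least 10 TPM, of the widest or narrowest range among these, or in a fixed set by role, and context genes at an unadjusted p under 0.05 or highest in their list. Nr1i2, Nr1h4, Slc10a1, Slc22a28, Abcc9, the genes listed at 0 and the bile duct and stellate cell markers named singly were added after their values were seen.

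The alternatives changed the pseudocount (0.1, 0.5), the filter (none, 5 TPM), the scaling (median of ratios, quantiles, or TPM without mitochondrial-encoded genes) and the test (limma with no trend, with robust variances or with weights per library, a permutation test over all 924 labellings, a replicate block). Others left out each library, kept the 8 libraries with Dbp under 10 TPM, or added 2 clock components as covariates. Keeping the 4 libraries with Dbp of at least 10 TPM was added after seeing the data. RefSeq for GRCm38.p6 gave gene order for 84 of 86 symbols and promoters for 26 of the 36 tested transporters; as the files use another build, none of its gene coordinates are printed beside the promoter windows. The values of 3 tested transporters are not reported here, though counts, sums and medians include them.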

Additional observations from a re-analysis of the deposited data

Results flagged for a closer look

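A sample far from the others of its group was found in 3 of 70 groups of 6 libraries (each of 33 tested transporters and the export and uptake sums, in each treatment group), where chance alone flags about 1 in 20, or 3.5. Abcc6 stood at 23.4 TPM in control 6, with 16.2 TPM in the next control. Abca3 stood at 23.6 TPM in selenium 3, with 14.3 TPM in the next selenium library. Abcb8 stood at 11.1 TPM in selenium 2, with 7.32 TPM in the next. Without selenium 3 the log2 change of Abca3 was 0.46, and without control 6 that of Abcc6 was -0.09.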

How the results depend on the processing

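No transporter passed an adjusted p of 0.05 in any of the 26 alternatives with a test. In the permutation test no gene of any kind passed. The lowest adjusted p of a transporter was 0.0547, for Abca3 in limma without control 6. There 171 of all genes passed, against 33 with all libraries and 7 to 31 without any other library. At an unadjusted p under 0.05 there were 6 to 8 transporters with a library left out, 4 with a filter of 5 TPM, 11 with array weights and 7 to 10 in the others. Of the context genes, Abcf2 passed without control 6 (limma adjusted p of 0.0496), the only call there, and leaving out each library in turn gave 0 to 1. The median change of the uptake genes, -0.03, ranged from -0.12 to 0.11 over all alternatives. It was -0.12 on TPM rescaled without mitochondrial-encoded genes, which also moved the median of all genes from -0.03 to -0.11, 0.11 with only the 8 libraries with low Dbp and 0.0928 with only the 4 with high Dbp, and leaving out 1 library gave -0.05 to 0.02. The cause was not tested. The median of the export genes and both sums moved by less than the spread between libraries. The 7 transporters at an unadjusted p under 0.05 kept their sign in every alternative in which they were tested. As they were chosen on the same libraries, this is no separate check. Transporters whose 95% interval included 0 were given no direction, and their signs changed in 57 cases over the alternatives, spread over 16 of 27. The replicate numbers pair no mice by the labels. The deviations of same-numbered libraries correlated at -0.14 to 0.11, and 1 of 6 controls correlated best with its own number; with a replicate block 0 transporters and 3 of all genes passed, and 9 transporters had an unadjusted p under 0.05. Depth behind the values is unknown.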

Other observations

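Some transporters under the filter had a spread of low values that the tests above do not cover, and they were picked after their values were seen. Abcc5 (Mrp5), an exporter of cyclic nucleotides, had a mean of 1.36 ± 0.560 TPM in controls and 0.667 ± 0.202 TPM with selenium. All selenium libraries, at 0.410 to 0.910 TPM, lay below controls 2 to 6, the lowest of which was at 0.930 TPM, while control 1, at 0.550 TPM, lay among them. Abcc10 was at 0.370 to 0.880 TPM in controls and 0.300 to 0.500 TPM with selenium. Slc22a26 reached 1.51 TPM in control 4 and at most 0.430 TPM in any other library.

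The extreme values of the 36 tested transporters were unevenly spread over the libraries. Control 5 held the lowest value of 11 transporters and selenium 2 of 8, while control 6 held the highest value of 8 and selenium 1 and selenium 3 of 7 each. Such counts were not made over all tested genes. The median log2(TPM + 1) deviation from the gene's mean over libraries was -0.24 for transporters and -0.03 for all tested genes in control 5. It was 0.21 and 0.06 in control 6, 0.11 and 0.13 in selenium 3, 0.0004 and -0.11 in selenium 1 and 0.05 and -0.003 in selenium 2. Selenium 2 had the lowest Slco1b2, Slco1a4 and Abca1 and the highest Slc22a7 and Slc22a18 of all libraries.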
